A study of Mus musculus with 8 samples.

Results

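Peaks of ERRα binding whose centre lay inside a SINE, a short interspersed repeat, were followed through 4 peak lists made from mouse liver and skeletal muscle. A peak was counted when the annotation deposited with it placed its centre in a repeat of class SINE and not in a promoter. This rule took 10803 of the 126927 peaks of the 4 lists. No peak annotated as promoter carried a SINE label, so the promoter part of the rule removed nothing, and whether promoter peaks lie in SINEs cannot be read from these labels. The members were 1434 of 25427 peaks in WT muscle, 3344 of 50647 in 3SA muscle, 2586 of 21813 in WT liver and 3439 of 29040 in 3SA liver.

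ERRα was immunoprecipitated from wild-type (WT) mice and from ERRα 3SA littermates (3SA in the names of lists), in which 3 serines of the amino-terminal domain of the receptor carry mutations that prevent their phosphorylation. All mice were C57BL/6N males of 2 to 3 months, killed at zeitgeber time 9, and the muscle was gastrocnemius and soleus. Livers of 2 mice or hind limb muscles of 5 mice per genotype were pooled, and the study's protocol crosslinked isolated nuclei in muscle and homogenised tissue in liver, so tissue and preparation cannot be told apart. There was 1 list per genotype and tissue, so no difference between lists could be tested against a spread of replicates, and every interval given here is a 95% Wilson interval that covers counting error only. Of 20 skeletal muscle marker genes, 16 had a peak within 20 kb of the transcription start site (TSS) in each of the muscle lists and 11 and 10 in WT and 3SA liver, while for 20 hepatocyte markers the numbers were 4 in WT muscle, 10 in 3SA muscle, 11 in WT liver and 15 in 3SA liver. Of 5 endothelial, 5 macrophage and 5 adipocyte markers, 2, 1 and 2 had such a peak in WT muscle and 4, 4 and 2 in 3SA muscle. In WT liver 2 endothelial and 3 macrophage markers had one and no adipocyte marker, in 3SA liver 2, 1 and 2, and a peak near a gene marks binding and not expression. Over the 19188 genes named in any peak list, 8660 had such a peak in WT muscle, 12182 in 3SA muscle, 7515 in WT liver and 9437 in 3SA liver.

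SINEs are short elements that were copied into the genome through an RNA intermediate with enzymes borrowed from longer repeats. Mouse B1 elements, which the annotation places in the Alu family, derive from 7SL RNA, while B2 and ID elements derive from transfer RNAs. The B4 family holds composites such as ID_B1, which joins an ID-like and a B1-like part, and MIR elements are old copies shared by mammals. ERRα is an orphan nuclear receptor that drives genes of mitochondrial energy metabolism, and it binds as a dimer or monomer to the ERR response element (ERRE), an extended half-site that is written here as the 9 letters TCAAGGTCA on either strand.

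The sequences around the ERREs show what the members of one kind of element share. The 3 lines that follow give the most frequent letter at each of the 25 positions before and after the ERRE nearest the centre, over the ID_B1, B1 and MIR members of the WT liver list that held one (709, 120 and 63 peaks). The ERRE is in capitals.
ID_B1: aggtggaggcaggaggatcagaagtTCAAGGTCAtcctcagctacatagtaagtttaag
B1: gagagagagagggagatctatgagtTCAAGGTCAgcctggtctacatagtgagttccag
MIR: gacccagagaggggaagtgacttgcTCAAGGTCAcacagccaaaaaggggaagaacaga
Over the 21 positions nearest the ERRE (6 before and 15 after), the most frequent letter was carried by a median of 62.2% of the ID_B1 members, 62.5% of the B1 members and 46% of the MIR members. The WT muscle members gave agaagtTCAAGGTCAtcctcagctacatag around the ERRE of ID_B1, and the same 30 letters were read from each of the other 3 lists. In the LTR peaks of WT liver, which held 190 peaks with an ERRE, the median was 45.8%.

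Single members are shown next, chosen as the highest-scoring ERRE-bearing peaks of their family or as peaks near genes discussed later. Each stretch was read from GRCm38.p6 (mm10) on the strand that spells the ERRE, with the ERRE in capitals.
Lrpprc (ID_B1, chr17:84836493-84836551, minus strand): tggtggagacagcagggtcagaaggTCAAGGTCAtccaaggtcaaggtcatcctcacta
Zfp217 (ID_B1, chr2:170103503-170103561, minus strand): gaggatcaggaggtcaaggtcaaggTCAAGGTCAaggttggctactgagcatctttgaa
Pik3cd (ID_B1, chr4:149690905-149690963, minus strand): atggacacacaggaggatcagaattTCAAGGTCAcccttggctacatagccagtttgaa
Aldh1l1 (ID_B1, chr6:90553349-90553407, minus strand): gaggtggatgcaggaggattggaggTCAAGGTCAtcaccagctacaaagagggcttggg
Ucp3 (ID_B1, chr7:100482888-100482946, minus strand): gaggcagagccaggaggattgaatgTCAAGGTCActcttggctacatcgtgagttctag
Ryr1 (ID_B1, chr7:29123030-29123088, plus strand): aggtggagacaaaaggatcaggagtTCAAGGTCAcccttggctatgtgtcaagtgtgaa
Tk1 (B1F, chr11:117829786-117829844, plus strand): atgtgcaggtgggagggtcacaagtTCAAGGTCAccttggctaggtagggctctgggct
Med1 (B1_Mus2, chr11:98186631-98186689, plus strand): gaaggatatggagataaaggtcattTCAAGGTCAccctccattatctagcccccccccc
Qprt (B3A, chr7:127120218-127120276, plus strand): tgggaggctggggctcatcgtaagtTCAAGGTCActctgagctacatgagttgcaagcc
Tmem127 (B2_Mm2, chr2:127255497-127255555, plus strand): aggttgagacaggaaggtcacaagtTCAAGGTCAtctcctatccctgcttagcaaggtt
Ldha (MIR, chr7:46830110-46830168, minus strand): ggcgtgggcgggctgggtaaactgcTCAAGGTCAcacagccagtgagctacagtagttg
The element named is the one at the peak's centre, which need not be the one that holds the ERRE.

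SINE peaks took a larger share of the liver lists than of the muscle lists. They were 5.64% (interval 5.36 to 5.93) of the peaks in WT muscle, 6.6% (6.39 to 6.82) in 3SA muscle, 11.9% (11.4 to 12.3) in WT liver and 11.8% (11.5 to 12.2) in 3SA liver. The intervals of the liver lists overlapped each other and stood clear of both muscle lists, and those of the muscle lists did not overlap each other. Peaks centred in LINEs, the long interspersed repeats, took 9.25% of both muscle lists, 9.29% of WT liver and 6.15% of 3SA liver, and so did not share this order. Members lay in introns in 57.5%, 58.6%, 57% and 57.8% of cases, with the lists in the order given above, and all others were annotated as intergenic. LINE and LTR peaks likewise carried no annotation other than intron or intergenic, so this was not particular to SINEs.

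The B4 family held the most members in every list, though the share of the genome in each family was not set beside these counts. It numbered 592 peaks in WT muscle, 1557 in 3SA muscle, 1284 in WT liver and 1722 in 3SA liver. The Alu family, which holds the B1 elements, came next with 394, 913, 675 and 897 peaks in the same order. The B2 family had 199, 410, 311 and 388 peaks and the MIR family 217, 397, 269 and 366, so that these families were of like size within each list. ID elements gave 27, 58, 41 and 54 peaks. The small tRNA family gave 5, 4, 4 and 8 peaks, and the Deu family gave 5 in 3SA muscle, 2 in WT liver and 4 in 3SA liver. The members were spread over 34, 36, 36 and 37 named elements.

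**Figure D1:**
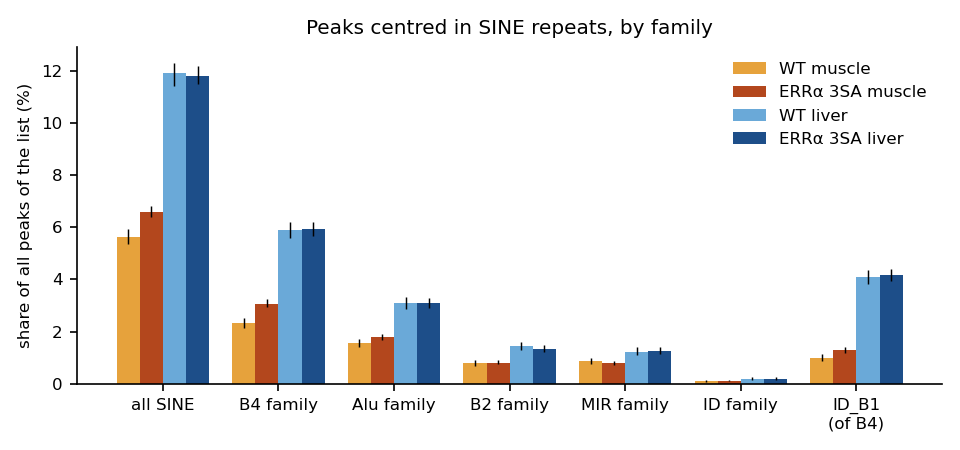
Bars give the share of all peaks of a list (%, vertical axis) that were centred in SINEs, in each of 5 families and in the element ID_B1, which is part of the B4 family, for the 4 lists. Error bars are 95% Wilson intervals. ID_B1 peaks were 1.00% of WT muscle and 1.29% of 3SA muscle but 4.09% of WT liver and 4.16% of 3SA liver, the widest ratio between tissues among the groups drawn.

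A single element, ID_B1, accounted for much of the distance between tissues. It held 255 peaks in WT muscle (1.00% of the list, interval 0.888 to 1.13), 651 in 3SA muscle (1.29%, 1.19 to 1.39), 893 in WT liver (4.09%, 3.84 to 4.37) and 1209 in 3SA liver (4.16%, 3.94 to 4.4). In muscle it made up 43.1% and 41.8% of the B4 family and in liver 69.5% and 70.2%. WT liver had 3.5 times (3.05 to 4.02) as many ID_B1 peaks as WT muscle, although it had 0.858 times (0.842 to 0.874) as many peaks in all. In ERRα 3SA mice the liver to muscle ratio was 1.86 (1.69 to 2.04) for ID_B1 and 0.573 (0.565 to 0.582) for all peaks. SINE peaks other than ID_B1 were 4.64%, 5.32%, 7.76% and 7.68% of the lists, so the order of the tissues was also present without this element. B4A, another element of the family, was 0.661%, 0.861%, 0.715% and 0.62% of the lists, which left no gap between tissues.

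The 3SA mutation went with more SINE peaks in both tissues, and in muscle the number grew more than that of all peaks. 3SA muscle had 2.33 times (2.19 to 2.48) as many SINE peaks as WT muscle, against 1.99 times (1.96 to 2.02) for all peaks of the list. By family the muscle ratio was 2.63 (2.39 to 2.89) for B4, 2.32 (2.06 to 2.61) for Alu, 2.06 (1.74 to 2.44) for B2 and 1.83 (1.55 to 2.16) for MIR. The B4 and Alu intervals lay above that of all peaks, and those of B2 and MIR held it. Among single elements RSINE1, of the B4 family, had a ratio of 3.13 (2.36 to 4.15) and ID_B1 one of 2.55 (2.21 to 2.95). SINEs were not alone in this, since LTR peaks had a ratio of 2.35 (2.23 to 2.48), LINE peaks one of 1.99 (1.89 to 2.09) and promoter peaks one of 1.25 (1.17 to 1.34). In liver the ratio was 1.33 (1.26 to 1.4) for SINE peaks and 1.33 (1.31 to 1.35) for all peaks, and the 4 large families lay between 1.25 and 1.36. When the lists of a tissue were cut to equal length by score, the SINE ratio was 1.25 (1.16 to 1.34) in muscle and 1.07 (1.02 to 1.13) in liver.

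An ERRE was several times more frequent in SINE peaks than in the lists as a whole. It stood in the central 300 bp of 240 SINE peaks of WT muscle (16.7%, interval 14.9 to 18.8), 606 of 3SA muscle (18.1%, 16.9 to 19.5), 1119 of WT liver (43.3%, 41.4 to 45.2) and 1468 of 3SA liver (42.7%, 41 to 44.3). Over all peaks the share was 3.92% in WT muscle, 4.28% in 3SA muscle, 14.6% in WT liver and 15.2% in 3SA liver. Windows of the same width 5 kb to either side of the SINE peaks held an ERRE in 1.12%, 1.08%, 1.18% and 1% of cases. Those windows need not lie in a SINE, so they give no baseline for the elements themselves. The letters of the ERRE read backwards, ACTGGAACT, were found in 9, 15, 11 and 11 SINE peaks. The genotypes of a tissue had overlapping intervals. The level and the gap between tissues depended on the score, since among peaks with a score of at least 50 the shares were 47.2%, 43.1%, 56% and 55.1%, and on the window, with 9%, 9.42%, 24.3% and 23.7% in the central 100 bp.

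The ERREs were concentrated in ID_B1. Of the ID_B1 peaks, 63.5% (57.5 to 69.2) held one in WT muscle, 61% (57.2 to 64.7) in 3SA muscle, 79.4% (76.6 to 81.9) in WT liver and 77% (74.6 to 79.3) in 3SA liver. The liver intervals lay above both muscle intervals. The element itself can carry the ERRE outside peaks. Of 15127 genomic copies of the ID_B1 surroundings, described below, 1774 held the exact ERRE, whether in a peak or not. SINE peaks other than ID_B1 held one in 6.62%, 7.76%, 24.2% and 24.1% of cases, which was still more than the 3.61%, 3.82%, 12% and 12.1% of peaks centred in no repeat. Peaks with ERREs at 2 or more places were 29, 41, 69 and 80 of the ID_B1 peaks.

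Other elements of the B4 family did not share the ID_B1 level. RSINE1 peaks held an ERRE in 11.1%, 6.6%, 20.8% and 11.8% of cases, and B4A peaks in 1.79%, 2.06%, 9.62% and 18.3%. The B4A value of 3SA liver (13.4 to 24.6) was above that of WT liver (5.91 to 15.3), with intervals that overlapped. In the Alu family the share was 9.64%, 11.8%, 33.8% and 35.5%, and it differed by element. PB1D10, a proto-B1 element, had 7.69%, 15.1%, 41.8% and 49.2%, the B1F element 22.6%, 21.7%, 34.4% and 40.2%, and the B1 elements as a group 7.72%, 9.01%, 28.8% and 28.6%. MIR peaks had 7.83%, 12.8%, 23.4% and 21%, and B2 peaks 4.52%, 4.63%, 13.8% and 13.9%. The other repeat classes were lower, with 2.06%, 2.54%, 10.6% and 14.2% for LTR and 0.68%, 0.534%, 2.66% and 4.26% for LINE.

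**Figure D2:**
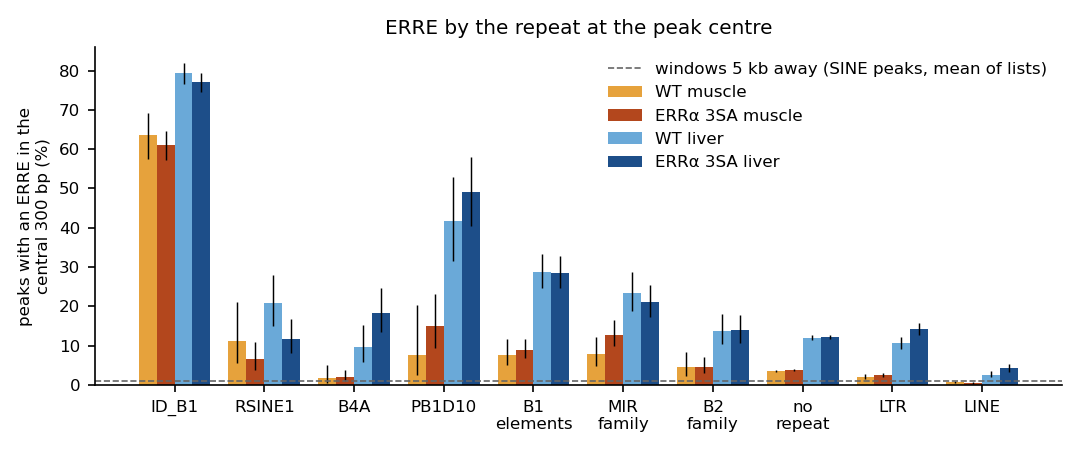
Bars give the share of peaks (%, vertical axis) with an ERRE in the central 300 bp, by the repeat at the peak centre, for the 4 lists. Error bars are 95% Wilson intervals and the dashed line is the mean share of windows 5 kb away from SINE peaks. Those windows need not lie in a SINE. ID_B1 stands between 61% and 79.4% in all 4 lists, and no other group drawn passes the 49.2% of PB1D10 in 3SA liver.

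The ERRE lay nearer to the peak centre in SINE peaks as a whole than in peaks without a repeat, mainly through ID_B1. Its median distance from the centre was 43, 44, 40 and 40 bp in SINE peaks, against 75, 71, 69 and 67 bp in peaks centred in no repeat. In ID_B1 peaks it was 33.5, 37, 36 and 35 bp, in SINE peaks other than ID_B1 66, 57, 51 and 54 bp, and in B2 peaks 97, 92, 93 and 85 bp, farther than in no repeat. The rule itself asks for a SINE at the centre, and its part in this distance was not tested. SINE peaks held 24% (21.5 to 26.8) of all ERRE-bearing peaks of WT muscle, 27.9% (26.1 to 29.9) of 3SA muscle, 35.1% (33.4 to 36.8) of WT liver and 33.2% (31.8 to 34.6) of 3SA liver. ID_B1 alone held 16.2%, 18.3%, 22.2% and 21.1% of them. Counting as ID_B1-like an ERRE with at least 13 of the 21 letters nearest to it (6 before and 15 after) shared with the WT liver ID_B1 sequence shown above, 8.45%, 11.3%, 12.3% and 12.6% of the ERRE-bearing peaks in no repeat were ID_B1-like, and 62.3%, 62.5%, 60.1% and 61.9% of those in ID_B1. Of all ERREs of the genome 13.2% were ID_B1-like, but these include ERREs inside SINEs. The share among genomic ERREs outside repeats was not counted, so the peaks in no repeat have no matching value here.

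The genome holds many more ERREs than the lists reach. On the main chromosomes of GRCm38.p6, 57821 copies of the 9 letters were found, of which 3.21% lay in a called interval of WT muscle, 6.76% of 3SA muscle, 8.49% of WT liver and 11.3% of 3SA liver. The 7658 copies with ID_B1-like surroundings were inside an interval more often, in 4.27% (3.84 to 4.75), 10.4% (9.76 to 11.1), 14.8% (14 to 15.6) and 20.2% (19.3 to 21.1) of cases. The 6771 copies with B1-like surroundings were inside one less often, in 1.83%, 3.49%, 5.88% and 8.14% of cases. The 294 MIR-like copies gave 6.8%, 12.2%, 12.9% and 17.3%, and 43098 copies with other surroundings 3.21%, 6.59%, 7.75% and 10.2%. These classes miss many members of their kind. Of the 17, 51, 63 and 77 ERRE-bearing MIR peaks of the lists only 1, 6, 8 and 10 were MIR-like. Of the ERRE-bearing Alu peaks 34.2%, 31.5%, 41.7% and 36.5% were B1-like. The surroundings were read from members of the WT liver list, so the values of that list are a description of peaks already used, and the other lists share part of those peaks. The authors kept uniquely aligned reads, and reads from near-identical young copies such as B1 could be lost there, but the part of this in the lower B1 values was not tested.

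Copies of the ID_B1 surroundings were also sorted by how far their core differed from the 9 letters. The ID_B1 and B1 surroundings came from WT liver peaks with the exact ERRE, so the ERREs of those peaks could only count in the exact class. Part of the fall given here was thus built in, in WT liver and in lists that share those peaks, and its size was not tested. With at least 17 of the 21 surrounding letters in place, 15127 copies were found, whatever their core. The 1774 with the exact ERRE lay in a called interval in 5.19% (4.25 to 6.32) of cases in WT muscle, 12.3% (10.8 to 13.9) in 3SA muscle, 17.2% (15.6 to 19.1) in WT liver and 23% (21.1 to 25) in 3SA liver. With 1 letter of the core changed, 3348 copies did so in 0.777%, 1.64%, 1.52% and 2.51% of cases, and with 2 letters changed, 3872 copies in 0.594%, 0.956%, 0.439% and 0.904%. Among the common cores with 1 change, TCAAGGTTA (387 copies) stood in an interval in 0.775%, 2.33%, 3.1% and 4.91% of cases, TCAAGGCCA (839 copies) in 1.07%, 1.07%, 1.19% and 1.55%, and TCAAAGTCA (355 copies) in 0.282%, 0.282%, 0.282% and 1.97%. The same fall was seen in the surroundings of B1, where 2785 of 290156 copies had the exact ERRE. These lay in an interval in 1.18%, 2.87%, 4.6% and 6.71% of cases, against 0.382%, 0.785%, 0.607% and 0.749% of 41671 copies with 1 change. The core TCGAGGCCA, the most frequent one among the B1 copies with 62720 copies, stood in an interval in 0.547%, 0.902%, 0.494% and 0.678% of cases. It was found in the central 300 bp of 21.6%, 16.3%, 13.3% and 12.8% of the Alu peaks, which in both muscle lists was more than held an ERRE.

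**Figure D3:**
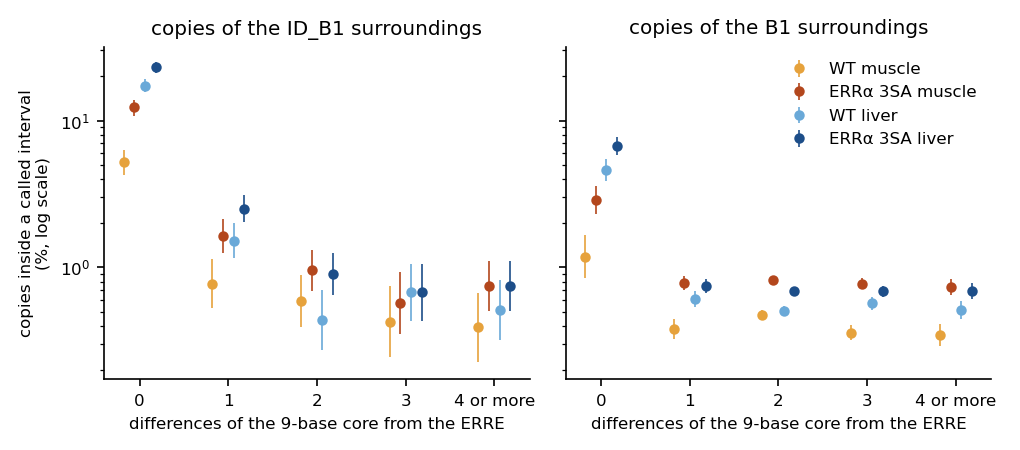
Points give the share (%, log scale) of genomic copies of the ID_B1 and B1 surroundings that lay inside a called interval, by how many of the 9 core letters differ from the ERRE (horizontal axis), for the 4 lists, with 95% Wilson intervals. In the ID_B1 surroundings the share goes from 17.2% with the exact ERRE to 1.52% with 1 difference in WT liver, and from 5.19% to 0.777% in WT muscle. Both surroundings were read from WT liver peaks with the exact ERRE, which can raise the share of the exact class by an amount not tested.

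ERREs with the letters GGTCA a few bases before them were inside a called interval more often. The letters 10 to 6 bases before the ERRE were read after the sequences had been seen, because the Lrpprc and Tk1 stretches carry GGTCA there where the ID_B1 sequence of most frequent letters carries GATCA. Of 503 ID_B1-like ERREs with GGTCA, 9.94% (7.62 to 12.9) lay in an interval of WT muscle, 22.3% (18.8 to 26.1) of 3SA muscle, 33% (29 to 37.2) of WT liver and 43.1% (38.9 to 47.5) of 3SA liver. For 1600 with GATCA the shares were 3.38%, 9.06%, 13.4% and 18%, and for 5555 with neither word 4.01%, 9.74%, 13.6% and 18.8%. Among ERREs with surroundings of no named kind, 11.6%, 24.5%, 32% and 43.6% of 241 with GGTCA lay in an interval, against 3.54%, 7.71%, 13.3% and 17.1% of 791 with GATCA and 3.16%, 6.47%, 7.51% and 9.91% of 42066 with neither. In B1-like surroundings 54 had GGTCA, and 7.41%, 20.4%, 22.2% and 22.2% of them lay in an interval. The shares were 4.65%, 5.23%, 8.72% and 8.72% of 172 with GATCA and 1.71%, 3.3%, 5.67% and 8.01% of 6545 with neither. Here the intervals of GGTCA and GATCA overlapped in WT muscle (2.92 to 17.6 and 2.38 to 8.91) and in both liver lists (13.2 to 34.9 and 5.36 to 13.9 in each). The word GGTCA stood there in 11.7%, 13.9%, 13.1% and 13.4% of the ERRE-bearing ID_B1 peaks, and in 3.03%, 2.83%, 4.04% and 3.37% of those in no repeat. As these letters were chosen after the sequences were seen, the difference is a description with no test.

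SINE peaks were somewhat stronger than the lists as a whole. A score of at least 100, the score being the peak caller's rating of a peak against input DNA, was reached by 7.18% of SINE peaks in WT muscle, 8.1% in 3SA muscle, 22.3% in WT liver and 25.4% in 3SA liver. Over all peaks it was reached by 4.66%, 5.14%, 17.3% and 20.6%. For ID_B1 the shares were 18%, 16.3%, 29.9% and 31.5%, and for LINE peaks 0.85%, 0.982%, 3.85% and 6.55%. The share of SINE peaks among all peaks rose with the score at the low end, from 5.35% of WT muscle peaks with a score of 30 to under 50 to 10.9% of those with 100 to under 200, and then was 5.57% at 200 or more, where 27 SINE peaks remained. In WT liver it went from 9.95% to 15.4% over the same steps and was 15.2% at 200 or more.

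The ERRE share of ID_B1 peaks also grew with the score. In WT muscle it was 47.2% (39.2 to 55.3) of 144 peaks with a score of 30 to under 50, 76.9% of 65 peaks with 50 to under 100, 94.6% of 37 with 100 to under 200 and all 9 peaks with 200 or more (70.1 to 100). In 3SA muscle it was 48.9%, 81.7%, 74% and 90.9% over the same steps. WT liver started higher, with 72.2%, 81.3%, 88% and 85.3%, and 3SA liver gave 65.3%, 81.6%, 87.1% and 80.1%. Weak peaks of muscle thus held the lowest ERRE shares, and from a score of 50 upward the intervals of the lists overlapped.

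**Figure D4:**
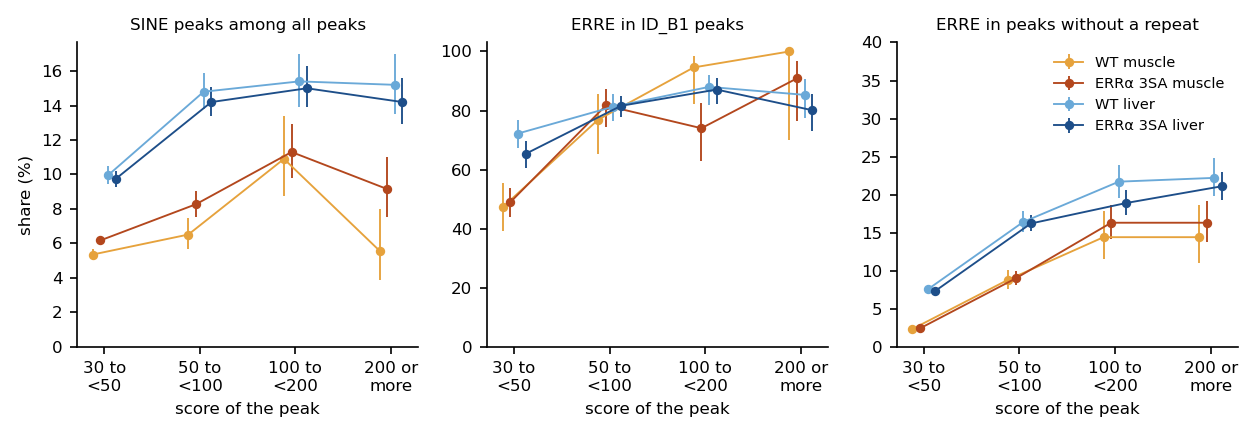
Points joined by lines give, by score of the peak (horizontal axis), the share (%) of SINE peaks among all peaks, of ID_B1 peaks with an ERRE and of peaks in no repeat with an ERRE, for the 4 lists, with 95% Wilson intervals and a vertical axis of its own in each panel. ID_B1 peaks of WT muscle go from 47.2% with an ERRE at a score of 30 to under 50 to 94.6% at 100 to under 200.

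Over all scores, SINE peaks had a partner in the other genotype more often than peaks in general. A peak of the other genotype had its centre within 300 bp for 26.3% (24.1 to 28.6) of SINE peaks in WT muscle, 11.5% (10.5 to 12.7) in 3SA muscle, 55.7% (53.8 to 57.6) in WT liver and 40% (38.4 to 41.7) in 3SA liver. All peaks gave 20.2% in WT muscle, 10.1% in 3SA muscle, 42.9% in WT liver and 32.2% in 3SA liver. The lists of the genotypes differ in length, which bounds the share that the longer list can reach, and with equally long lists the muscle values were 21.8% and 18.5%. At like scores the excess was not present throughout. In 3SA muscle 4.47% of SINE peaks and 5.35% of all peaks with a score under 50 were shared, and 55.4% against 60.7% at 100 to under 200. In WT liver the values under a score of 50 were 31.3% and 22.3%. ID_B1 peaks were shared in 55.7%, 22%, 71.9% and 50.2% of cases, MIR peaks in 25.3%, 17.4%, 61.3% and 42.6%, B2 peaks in 15.6%, 8.29%, 38.6% and 27.6% and LINE peaks in 10.4%, 5.06%, 11.8% and 14.5%. Among SINE peaks other than ID_B1 the values were 19.9%, 9.02%, 47.1% and 34.5%, so in muscle no excess over all peaks was left without that element.

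**Figure D5:**
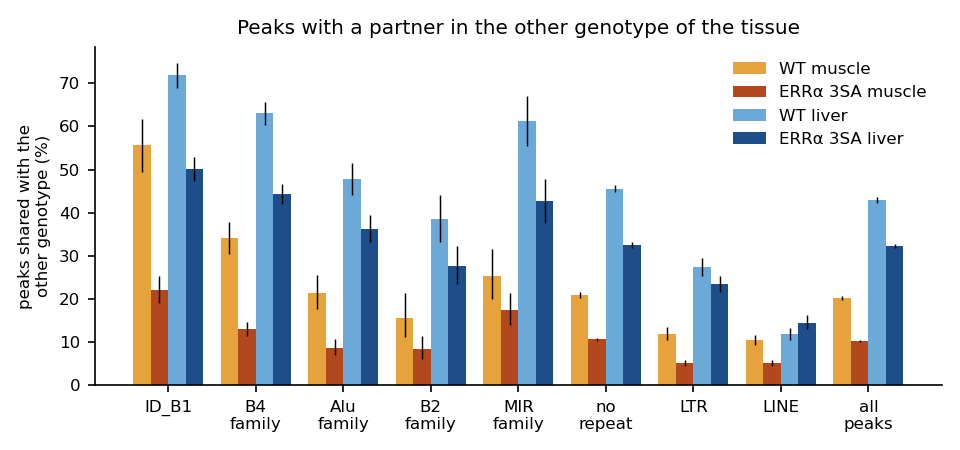
Bars give the share of peaks (%, vertical axis) with a peak of the other genotype of the same tissue within 300 bp, by the repeat at the peak centre, for the 4 lists, with 95% Wilson intervals. ID_B1 has the highest bar in each list, from 22% in 3SA muscle to 71.9% in WT liver, and LINE peaks stay at or under 14.5%.

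Shared peaks and peaks of 1 genotype differed in their ERREs. Of the ID_B1 peaks with a partner, 81%, 77.6%, 82.9% and 84.5% held an ERRE, against 41.6%, 56.3%, 70.5% and 69.4% of those without. In the set of all SINE peaks this was 44.8%, 45.3%, 57.6% and 57.3% against 6.72%, 14.6%, 25.3% and 32.9%. 3SA muscle had 508 ID_B1 peaks with no partner in WT muscle, and 45.1% (40.8 to 49.4) of them had a partner in at least one liver list. That share was 68.2% (62.6 to 73.3) where they held an ERRE and 15.3% (11.2 to 20.6) where they did not. Peaks in no repeat that 3SA muscle alone of the muscle lists held had a liver partner in 10.4% of 30603 cases, in 51.1% with an ERRE and in 9.1% without.

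Between tissues, SINE peaks of a list had a partner in a list of the other tissue in 26.8%, 24%, 26.2% and 22.6% of cases, where all peaks had 16.9%, 14.3%, 26.4% and 24.4%. For ID_B1 the values were 62%, 53%, 34.7% and 30.1%. Most ID_B1 peaks of muscle thus had a liver partner, while most of liver had none in muscle. Partners in all 4 lists were found for 177 SINE peaks of WT muscle, 179 of 3SA muscle, 180 of WT liver and 178 of 3SA liver, and 86, 82, 92 and 85 of these were ID_B1 peaks. An ERRE stood in 60.5%, 55.3%, 60.6% and 64.6% of them, against 20%, 20.4%, 22.4% and 21.4% of the peaks in no repeat found in all 4 lists.

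The annotation reads a single base, the centre, and a partner was often placed in another class. The partner in the other genotype was itself centred in a SINE for 58.4% of shared SINE peaks in WT muscle, 57% in 3SA muscle, 59.5% in WT liver and 62.2% in 3SA liver, and in the same element for 47.2%, 46.1%, 47.1% and 49.2%. It was in no repeat for 36.1%, 39.4%, 34.8% and 32.9%. Membership of a single locus is therefore less firm than the counts of a family.

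SINE peaks lay near genes about as often as other peaks or slightly more often. Within 20 kb of a TSS were 55.2% (52.6 to 57.7) in WT muscle, 51.4% (49.7 to 53.1) in 3SA muscle, 55.4% (53.5 to 57.3) in WT liver and 57.5% (55.8 to 59.1) in 3SA liver. All peaks gave 51.1% in WT muscle, 46.5% in 3SA muscle, 51.4% in WT liver and 55.5% in 3SA liver, promoter peaks included. By family, Alu peaks were near a TSS in 58.4%, 57.8%, 63.9% and 64.8% of cases and B4 peaks in 51.4%, 47%, 50.3% and 53.8%.

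The 3 highest-scoring SINE peaks of each list mostly held no ERRE in the central 300 bp. This did not hold for strong peaks at large. With a score of 200 or more, an ERRE stood in 37% of 27 SINE peaks of WT muscle and 46.9% of 96 of 3SA muscle. In WT liver it stood in 56.5% of 248 and in 3SA liver in 53.2% of 385. A rank is given below for each list in which a peak had its centre within 300 bp, and a list with no rank can still hold an interval that overlaps the locus, as was the case in WT liver for Tbc1d1, in 3SA muscle for Ntng2, in 3SA liver for Sdhd, Mlycd and the PB1 peak of Pik3cd, in WT liver for Ucp3 and in both muscle lists for Idh3a. The element named here and below is that of a list in which the peak was a member. Its ranked partner in another list can be centred in another element, in another class of repeat or in no repeat. The 3 highest of each list came to 12 peaks at 8 loci, of which 2 peaks held an ERRE in the central 300 bp and 4 anywhere in the interval. The highest of both muscle lists lay 1448 bp (WT) and 1314 bp (ERRα 3SA) upstream of Jund, a subunit of the AP-1 transcription factor, with scores of 2661 and 4083 and ranks of 13 and 11 in their lists. Its centre was in a B2_Mm2 element in WT muscle and in a B1_Mus2 element in 3SA muscle. The Jund locus was not particular to muscle, as it ranked 37 in WT liver, again in B2_Mm2. An interval of 3SA liver overlapped it with its centre over 300 bp away. In WT liver the highest was a MIR3 peak 2009 bp upstream of Nlrc5, an activator of MHC class I genes, with a score of 4265 and rank 9. It ranked 559 in WT muscle and 437 in 3SA muscle, and in 3SA liver an interval overlapped it whose centre lay over 300 bp away. A peak in RSINE1 near Fam69a ranked 35, 40, 18 and 14, and one in MIRb near Mir6364 ranked 42, 38, 187 and 120. A B1_Mus1 peak near Ly6c2, a surface protein of monocytes, ranked 315, 688, 13 and 23, and a PB1D10 peak in an intron of Tbc1d1, a regulator of glucose uptake in muscle, ranked 55, 36 and 15 in the lists other than WT liver.

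Both ERRE peaks among the highest of each list were in ID_B1 elements far from genes. The first lay 27709 bp downstream of the start of Zfp217, a zinc finger protein, with a score of 3288 in WT liver, 3 ERREs in its central 300 bp and ranks of 138, 95, 15 and 8. The printed Zfp217 stretch shows a run in which the word aaggtca repeats. The second lay 45752 bp upstream of Lrpprc, which encodes a protein that stabilises mitochondrial messenger RNAs, with a score of 2646 in 3SA liver, 2 ERREs and ranks of 134, 83, 28 and 28. Both had partners in all 4 lists, as did the Fam69a and Mir6364 peaks and a B4 peak in an intron of Camk1d, a calcium-dependent kinase gene, which ranked 70, 93, 22 and 6.

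Among the highest ERRE peaks of each family, the ranks of several differed between the tissues. The ID_B1 peak in intron 1 of Pik3cd, the delta catalytic subunit of phosphoinositide 3-kinase, ranked 94 in WT muscle and 230 in 3SA muscle and had no liver partner. A separate PB1 peak of the same intron, with 2 ERREs, ranked 1058, 606 and 2091 in the lists other than 3SA liver. The ID_B1 peak in intron 1 of Pstpip2, a cytoskeletal adaptor gene, ranked 179 and 167 in the muscle lists and likewise had none in liver. The B1F peak upstream of Tk1, thymidine kinase, ranked 71 and 76 in the liver lists, 928 in 3SA muscle and 10219 in WT muscle. The 3SA muscle partner was centred in ID_B1. The B3A peak in intron 1 of Qprt, an enzyme of NAD synthesis, ranked 40 in 3SA liver with a score of 2180 and 8204 in WT liver, and intervals of both muscle lists overlapped this wide peak with centres over 300 bp away. The MIR peak in intron 1 of Tom1, an endosomal sorting protein, ranked 105 and 90 in muscle and 900 and 1970 in liver. The B1_Mus2 peak in intron 2 of Med1, the Mediator subunit that contacts nuclear receptors, ranked 265 in WT muscle. Its partners ranked 176 in 3SA muscle, 68 in WT liver and 74 in 3SA liver, all of them centred in a B2_Mm1a element.

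Further ERRE peaks were the highest of the B2 or the MIR family in a list. The B2_Mm2 peak in intron 2 of Tmem127, a membrane protein of the endosome, ranked 600 in WT muscle. Its partners ranked 274 in 3SA muscle, 194 in WT liver and 432 in 3SA liver. The partner in WT liver was centred in ID_B1 and those of both 3SA lists in no repeat. The B2_Mm2 peak upstream of Gtf2i, a general transcription factor, ranked 148 and 233 in liver and was overlapped in both muscle lists by intervals with centres over 300 bp away. The B3A peak in intron 6 of Zc3hc1 had a score of 170 in 3SA muscle and ranked 1252, 6227 and 5225 in the lists other than WT muscle. The MIR3 peak upstream of Ywhaz, a 14-3-3 protein, ranked 368 and 600 in liver and 1467 in 3SA muscle. The MIR3 peak assigned to Gm16130 ranked 39 and 57 in liver and 407 and 557 in muscle, while the MIR3 peak in intron 2 of Ntng2 ranked 862 in WT muscle and 9851 and 28188 in liver.

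Peaks of 1 genotype with no overlap in the other were weak beside these. The highest in WT muscle were a B1_Mus2 peak assigned to Erdr1 on chromosome Y, with a score of 171, and a MIRb peak near Tmem181b-ps with 131, neither with an ERRE. The Erdr1 peak also ranked 5512 in WT liver. In 3SA muscle a B1_Mus1 peak near 2810429I04Rik had a score of 359, and it was not private to the mutant, as it ranked 76 and 239 in WT and 3SA liver. WT liver alone of the liver lists held peaks near Sfi1 (score 176) and Dusp6 (score 127). 3SA liver alone held a B3A peak near Bbs10 (score 340) and an ID_B1 peak in intron 1 of Aldh1l1, an enzyme of folate metabolism (score 280), the latter with an ERRE, and both were in none of the other 3 lists.

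Genes of energy metabolism with SINE peaks within 20 kb were counted on 8 lists of genes. Of the 19188 genes named in any peak list, 20.2% had a SINE peak within 20 kb in at least 1 of the 4 lists, and by list 3.91% in WT muscle, 8.19% in 3SA muscle, 6.78% in WT liver and 9.18% in 3SA liver. Of 40 genes of oxidative phosphorylation and the TCA cycle, 9 had one (22.5%). They numbered 1 in WT muscle, 6 in 3SA muscle and 3 in 3SA liver. Among the ERRE-bearing ones were peaks near Idh3a, a subunit of isocitrate dehydrogenase (MIR3, intron 1, ranks 47 and 79 in liver), Mdh2, malate dehydrogenase (RSINE1, intron 2, ranks 1338, 5574 and 4523 in the lists other than 3SA liver), and Sdhd, a subunit of succinate dehydrogenase (B1_Mur1, intron 1, ranks 9573, 2680 and 792 in the same lists). Any peak within 20 kb, whatever its annotation, was found for 35, 37, 37 and 39 of these 40 genes, so most of them were reached by ERRα outside SINEs. Over the 19188 genes named in any peak list, such a peak was found for 8660, 12182, 7515 and 9437.

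Of 37 genes of fatty acid use and ketone bodies, 10 had a SINE peak (27%), namely 2, 5, 3 and 6 by list. Malonyl-CoA decarboxylase Mlycd had an ID_B1 peak with an ERRE in intron 2 that ranked 1608 in 3SA muscle and 6227 in WT liver. Ucp3, a mitochondrial carrier of muscle, had one in intron 6 that ranked 2394 in 3SA muscle and 9455 in WT muscle. Carbohydrate and lactate metabolism had the highest share, with 18 of 38 genes (47.4%), and 6, 7, 4 and 9 by list. Of these genes, 24, 33, 28 and 35 had a peak of any kind, where the 19188 genes named in any peak list gave 8660, 12182, 7515 and 9437. ERREs were present in the SINE peaks near Pkm, muscle pyruvate kinase (B1F, intron 1, ranks 1543, 3570, 15928 and 7231), Pdhb, a subunit of pyruvate dehydrogenase (B1F1, ranks 1773, 2203 and 1739 in the lists other than WT muscle), and Ldha, lactate dehydrogenase A (MIR, ranks 5574, 4137 and 2597 in the same lists). No test of a list was made, and the larger share is a count.

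Of 20 clock genes, 7 had a SINE peak (35%), namely 2, 3, 5 and 2 by list. The repressor Cry2 had a MIR peak with an ERRE in WT liver (score 143) that an interval of 3SA liver overlapped with its centre farther away, Nfil3, a repressor of D-box genes, had a B4 peak that ranked 4057, 2721, 2244 and 799, and the clock activator Arntl had an ID_B1 peak in intron 1 that ranked 7108 and 4837 in liver. Of 39 sarcomere and calcium handling genes, 6 had one (15.4%). Ryr1, the calcium release channel of muscle, had peaks that ranked 659 and 439 in the muscle lists, and its ID_B1 member in WT liver had a score of 33 and ranked 16370. Atp2a2, a calcium pump, had an ID_B1 peak with 2 ERREs in WT liver (score 144) that intervals of both 3SA lists overlapped without a centre within 300 bp, and Casq1, calsequestrin, was the gene nearest to a B4A peak without an ERRE in 3SA muscle (score 49).

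Of 40 genes of liver proteins and enzymes, 8 had a SINE peak (20%), with no ERRE in any of them. Hpd, an enzyme of tyrosine breakdown, had a peak that ranked 1186 and 11369 in muscle and 449 and 378 in liver, and it was centred in ID_B1 in 3SA muscle. Tat, tyrosine aminotransferase, had an RSINE1 peak in 3SA liver (score 84), and Ppara, the fatty acid receptor of liver, had a MIR peak that ranked 5512 and 9882 in liver. Of 40 nuclear receptors and coregulators, 13 had one (32.5%), namely 1, 5, 6 and 7 by list. Besides Med1 these included Nr0b2, a repressor of bile acid synthesis genes, with an ERRE-bearing ID_B1 peak that ranked 2298 in 3SA liver. Its partners in 3SA muscle and WT liver ranked 5574 and 7108 and were centred in an LTR repeat. Of 31 genes of insulin and AMPK signalling, 6 had one (19.4%). Camkk2, a kinase upstream of AMPK, had an ID_B1 peak with an ERRE that ranked 16894, 1773, 2091 and 5086, Prkaa2, the AMPK alpha subunit of muscle, a MIRb peak 493 bp from its TSS that ranked 380 in WT muscle, 2587 in WT liver and 1836 in 3SA liver and that an interval of 3SA muscle overlapped, and Insr, the insulin receptor, a B1_Mur1 peak that ranked 7108 and 5956 in liver.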

How the data were processed

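The data are ERRα ChIP-seq peak lists of WT and ERRα 3SA liver and skeletal muscle, 1 list each, with input samples used only by the authors. Per the submitters' processing notes and the methods, the authors used Trimmomatic (0.36) for trimming and BWA (0.7.12) for alignment to mm10, kept unique alignments, removed duplicates with Picard (2.0.1), called peaks with MACS2 (2.1.1.20160309) against input and annotated them with HOMER (4.9.1). The immunoprecipitations of a pool of mice were combined before sequencing. The deposited Peak Score is a score without a fixed range (30 to 13325), and the deposited CpG and GC columns are a fraction of the interval. Read depth of the libraries is not given in the sources used here, so the number of peaks limits the precision. Reads of near-identical repeat copies can be lost by the unique alignment step.

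Repeat class, family and element were read from the deposited detailed annotation. Intervals were 234 to 6788 bp wide. Sequence was read with pysam (0.24.0) and samtools (1.23.1) from GRCm38.p6, and the GC fraction recomputed from it equalled the deposited one, as printed, for 25426, 50645, 21811 and 29037 peaks. TCAAGGTCA was searched on both strands in the 300 bp around the centre. Peaks were shared when centres lay within 300 bp. Genomic copies were found by comparing 21 letters around each core on chromosomes 1 to 19, X and Y. Shares carry 95% Wilson intervals (scipy 1.17.1), and ratios the interval from the share of 1 list in the sum. Partner search, motif search and copy search were tested on simulated data, where 500 of 500 planted partners, 90 of 90 planted sites and 40 of 40 planted copies were found.

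Named peaks were, in each list, the 3 highest scores, the highest ERRE peak of the Alu, B2, B4 and MIR families and the 2 highest without partner or overlap in the other genotype. To these were added the 5 best mean ranks among SINE peaks found in all 4 lists, and up to 3 genes of each gene list, ERRE peaks first. Some peaks that this rule named are not reported here. The members and gene lists were chosen with earlier results of these data known. Alternatives changed the score filter, list length, TSS distance, motif, window and sharing rule. No test between groups was possible with 1 list per group.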

Additional observations from a re-analysis of the deposited data

Results flagged for a closer look

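In 6 measures the ERRα 3SA list moved one way from WT in muscle and the other way in liver. With 1 list per group none of these differences was tested, and the values are percentage points, ERRα 3SA minus WT in muscle, then in liver, then the former minus the latter. The SINE share of the list moved by 0.963 and -0.013, a difference of 0.976. The Alu share of the list moved by 0.253 and -0.00564, a difference of 0.259, and the B2 share by 0.0269 and -0.0897, a difference of 0.117. The MIR share moved by -0.0696 and 0.0271, a difference of -0.0967. The ERRE share of SINE peaks moved by 1.39 and -0.585, a difference of 1.97, and the ERRE share of MIR peaks by 5.01 and -2.38, a difference of 7.39. In each of these measures the liver change was smaller than the width of the WT liver counting interval. The muscle change was likewise smaller than the width of the WT muscle interval, except for the SINE share of the list. Several of these directions depended on the processing. With equally long lists the liver values, WT then ERRα 3SA, were 11.9% and 12.7% for the SINE share, 3.09% and 3.2% for the Alu share and 43.3% and 47.3% for the ERRE share of SINE peaks, all of them higher in ERRα 3SA. With promoter peaks left out of the denominator the liver SINE share was 12.6% and 12.7%. The MIR share in muscle was 0.853% and 0.924% with equally long lists and 1.33% and 1.46% at a score of at least 50, and so was higher in ERRα 3SA.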

How the results depend on the processing

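Values are given for WT muscle, 3SA muscle, WT liver and 3SA liver in that order, and no alternative turned the direction of a ratio. The SINE share of the list was 7.15%, 8.98%, 15% and 14.4% at a score of at least 50, 8.69%, 10.4%, 15.3% and 14.7% at 100, 6.09%, 7.29%, 12.8% and 12.3% within 20 kb of the TSS, and 6%, 6.86%, 12.6% and 12.7% with promoter peaks left out of the denominator. With equally long lists it was 7.04% in 3SA muscle and 12.7% in 3SA liver. The ratio of ERRα 3SA to WT in muscle was 2.63 at a score of 100, 2.17 within 20 kb and 1.25 with equally long lists, where both lists had as many peaks. In liver it was 1.52 at scores of 50 and 100 and 1.07 with equally long lists. The ERRE share of SINE peaks was 47.2%, 43.1%, 56% and 55.1% at a score of 50, and 55.3%, 47.2%, 59% and 57.7% at 100. This narrowed the gap between tissues, in WT more than in ERRα 3SA. At 100 the WT intervals overlapped, while those of 3SA muscle (41.4 to 53.2) and 3SA liver (54.4 to 60.9) did not. It was 19.2%, 20.6%, 47.9% and 47.4% for TNAAGGTCA, 9%, 9.42%, 24.3% and 23.7% in the central 100 bp, and 20.9%, 21.7%, 48.8% and 48.6% in the whole interval. Within 20 kb it was 19.2% and 20.4% in muscle, and with equally long lists 26.4% in 3SA muscle and 47.3% in 3SA liver. The share of SINE peaks found in the other genotype was 63.1%, 25.4%, 75.7% and 46.9% at a score of 50, 76.7%, 28.8%, 77.8% and 48.3% at 100, 21.8%, 18.5%, 53% and 46.9% with equally long lists, 16%, 6.91%, 35.4% and 25% at a centre distance of 100 bp, 36.3%, 15.4%, 63.1% and 45.7% at 1000 bp, and 32.9%, 13.8%, 60.8% and 43.6% by 1 shared base. Within 20 kb it was 29% in WT muscle. The other 13 values stayed within their counting intervals, and of 96 values by family 68 moved beyond theirs. The WT list was the shorter one in each tissue, so cutting to equal length left its SINE and ERRE shares unchanged. Those values could not move, and they are among the ones that stayed. The cause of these moves was not tested, and the filters by score, list length and TSS distance also leave fewer peaks. No paired analysis was possible because each group has 1 list and the result comes from no test.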
